A study of Mus musculus with 18 samples.

Results

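Levels of 8 genes of the contractile apparatus were described across 18 mammary tumors of mice. They form a list of smooth muscle and myoepithelial genes, were taken by symbol, and were all found among the 55450 genes of the deposited tables. They were Acta2, Actg2, Lmod1, Tagln, Cnn1, Myh11, Mylk and Oxtr.

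RNA of each tumor was sequenced in bulk, and every tumor came from its own mouse according to the series description. The 14 Cbfb(het) tumors carried MMTV-Cre(+), were labelled het at Cbfb, and had a heterozygous Pik3ca H1047R allele, written Pikca in the labels. A single Cbfb(homo) tumor carried the same MMTV-Cre(+) and Pik3ca H1047R alleles and was labelled homo at Cbfb. The 3 Cbfb(wt) tumors carried MMTV-Cre(+) and Pik3ca H1047R and were labelled wt at Cbfb, so no group lacked the oncogenic Pik3ca allele or the Cre transgene. The MMTV promoter is active mainly in mammary epithelium, and Cbfb encodes the partner subunit of the RUNX transcription factors. The labels do not say how Cbfb was altered, nor the age of the mice.

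Contraction of smooth muscle and of myoepithelium is set off when calcium, bound to calmodulin, activates myosin light chain kinase, which phosphorylates the regulatory light chain of myosin so that myosin can pull on actin filaments. In the mammary gland, myoepithelial cells surround the luminal cells and squeeze milk out of the alveoli after oxytocin binds its receptor. The same contractile proteins are also made by vessel smooth muscle, by pericytes and by activated fibroblasts, so a high level in a whole tumor does not name a cell type. In bulk RNA, fewer cells of a type and less RNA per cell cannot be told apart.

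Many contractile genes are regulated through the CArG box, the site bound by serum response factor, and some through the M-CAT core CATTCC, so these letters were searched for on both strands of the 250 bases before the RefSeq start of each gene (GRCm38.p6). Windows were matched for 5 of the 8 genes, namely Acta2, Lmod1, Mylk, Cnn1 and Oxtr. None of the 5 held a CArG box without mismatch, which 1.47% of 32851 RefSeq windows of this length held. With up to 1 mismatch, matches lay in 2 of the 5 windows, those of Acta2 and Lmod1, against 18.6% of all windows. The letters CATTCC lay in 3 of the 5, those of Acta2, Lmod1 and Mylk, against 12.6% of all windows. The E-box letters CANNTG, a common motif, lay in 4 of the 5 windows and in 66.2% of all windows. These matches did not overlap each other, and each is a description of letters, not of binding.

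The matches of Acta2 and Lmod1 are shown because these are the 2 windows with a CArG box match, and that of Mylk because it holds the remaining M-CAT core. Each run of 30 bases reads 5′ to 3′ on the gene's strand, with the match in capitals. Its name gives the distance of the first base of the match from the RefSeq start. All 3 Acta2 matches lie in a stretch that GENCODE M21 annotates as the first exon of a longer Acta2 transcript. The Mylk match lies inside the Mylk gene, which GENCODE starts at base 34745210 of the same strand, so its RefSeq start is an internal one. The Acta2 runs lie on the minus strand at chr19:34255438-34255467, chr19:34255388-34255417 and chr19:34255502-34255531, and the Mylk run on the plus strand at chr16:34784780-34784809.
Acta2 CArG box match at -84: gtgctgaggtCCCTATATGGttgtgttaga
Acta2 CArG box match at -34: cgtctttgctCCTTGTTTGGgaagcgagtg
Acta2 M-CAT core at -146: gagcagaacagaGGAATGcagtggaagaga
Mylk M-CAT core at -158: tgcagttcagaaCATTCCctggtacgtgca

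The 244 bases of the Lmod1 window that lie before its first GENCODE exon, at chr1:135324563-135324806 on the plus strand, are given whole because they hold both kinds of match. The capitals mark, in order, the CArG box matches at -189 and -164 and the M-CAT core at -130, read from the opposite strand.
Lmod1: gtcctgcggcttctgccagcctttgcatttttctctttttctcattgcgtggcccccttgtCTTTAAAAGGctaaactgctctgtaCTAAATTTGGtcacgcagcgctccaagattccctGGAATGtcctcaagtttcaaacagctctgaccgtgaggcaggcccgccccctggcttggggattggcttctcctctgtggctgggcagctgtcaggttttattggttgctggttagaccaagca

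Depth was even, at 33210207 to 40974130 rounded expected counts per tumor. Milk protein genes took 0.00032% to 13.4% of the counts. The log2 CPM of Cbfb was 5.74 ± 0.63 (SD) in the 14 Cbfb(het) tumors, against 5.13 ± 0.82 (SD) in the 3 Cbfb(wt) tumors, a difference of 0.61 with a two-sided exact permutation p of 0.157 over 680 splits. Without Cbfb(wt) replicate 1 the difference was 0.98, with an exact p of 0.025. The Cbfb(homo) tumor stood at 4.20. Epcam, an epithelial surface marker, reached 331 to 666 TPM in 13 tumors but 133 TPM or less in Cbfb(het) replicates 1, 10, 12 and 14 and in Cbfb(wt) replicate 2. The libraries of Cbfb(het) replicates 10 and 14 were nearly alike, with r = 0.998 across genes and a chi-square of 4.26 per degree of freedom, against 87.1 or more for any other pair of the same group. They differed by more than sampling noise and were kept as 2 tumors, as the series description has them, but whether they came from 1 tumor was not tested. With their mean counted as 1 tumor, 0 members passed the test between genotypes, and 19 of the 28 pairs of members passed the correlation test described further on, against 20 with both.

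Acta2 and Tagln were the 2 most abundant of the 8 genes in all 18 tumors. TPM is scaled by transcript length and lets genes be compared within a tumor. On this scale Acta2 was the highest in 14 tumors and Tagln in the other 4. Median TPM over the 18 tumors was 145 for Acta2, 89.3 for Tagln, 8.22 for Cnn1, 6.97 for Actg2, 5.35 for Oxtr, 4.46 for Mylk, 2.53 for Lmod1 and 2.16 for Myh11. The ranges of the neighbours Cnn1, Actg2, Oxtr and Mylk over the tumors overlapped in large part, though Cnn1 reached 134 TPM and Oxtr 20.9, and those of Lmod1 and Myh11 overlapped as well. Each gene spanned a wide range, from 23.8-fold between the highest and lowest tumor for Lmod1 to 73.7-fold for Cnn1. The SD of log2 CPM over the tumors was larger than that of 73.8% of the genes tested for Mylk and of 91.4% for Oxtr, with the other 6 between.

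**Figure D1:**
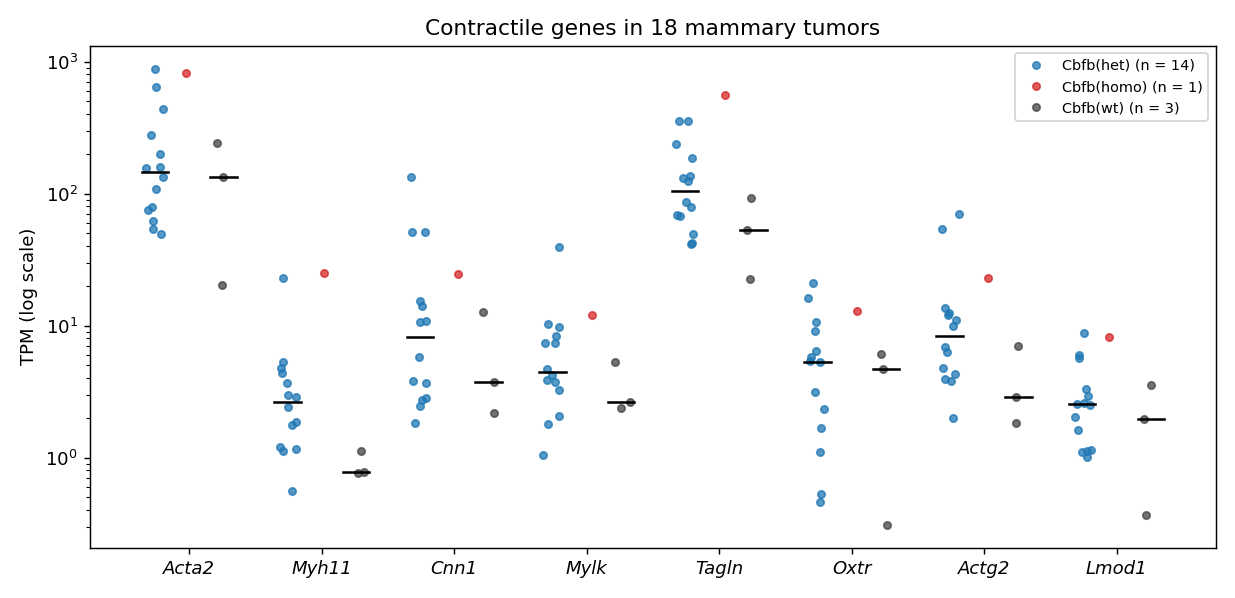
TPM of each gene on a log axis, 1 point per tumor, with Cbfb(het) left, Cbfb(homo) in the middle and Cbfb(wt) right, and lines at the medians of Cbfb(het) and Cbfb(wt). Acta2 and Tagln lie above the other 6 genes by median and within each tumor, though single points of Cnn1 and Actg2 reach into their range. The points of Cbfb(het) and Cbfb(wt) overlap for every gene.

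None of the 8 genes passed the test between Cbfb(het) and Cbfb(wt) tumors. The test was edgeR's quasi-likelihood F-test with Benjamini-Hochberg adjustment over 18475 genes, and every member had an adjusted p of 0.999. Nor did any other gene pass, so the background share called was 0% higher and 0% lower, and DESeq2 and limma-voom also called 0 genes. At an unadjusted p under 0.05 stood 623 genes, 270 higher and 353 lower in Cbfb(het), among them 2 members. The log2 fold changes of the members were positive in 8 of 8, and their median was 1.39, whereas those of all genes tested were positive in 53.2%, and their median was 0.03. The members vary together across tumors, so their 8 signs are not 8 separate observations.

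**Figure D2:**
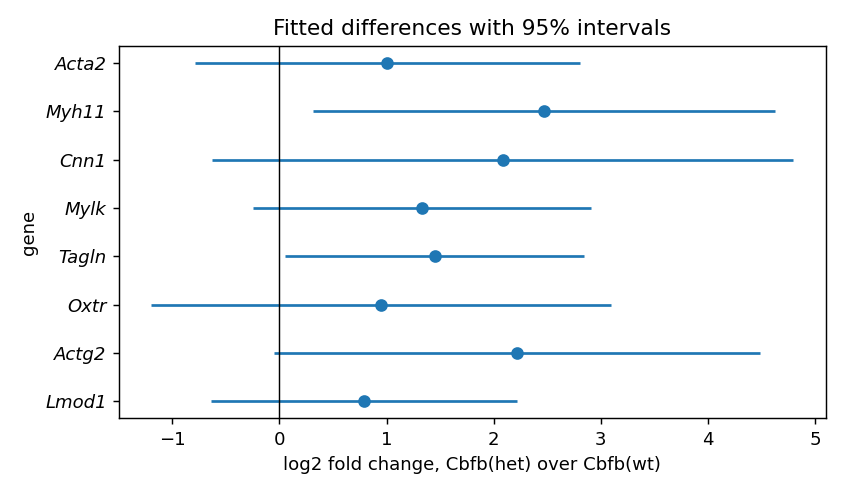
Fitted log2 fold change of each gene, Cbfb(het) over Cbfb(wt), as points with 95% intervals as bars. All 8 points lie right of 0, and the intervals of Myh11 and Tagln lie above 0 before adjustment.

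Among the actins, Acta2 encodes the alpha actin of vascular smooth muscle and of myoepithelium (chr19:34241090-34255590, minus strand, GRCm38). It stood at 49.2 TPM in the lowest, 145 in the median and 883 in the highest Cbfb(het) tumor, at 821 in the Cbfb(homo) tumor, and at 134, 244 and 20.4 TPM in the Cbfb(wt) tumors. Cbfb(het) replicates 1, 4, 5 and 12 lay above all 3 Cbfb(wt) tumors, and the other 10 lay within their range. The mean was 237 ± 250 TPM in Cbfb(het) (SD, n = 14) and 133 ± 112 TPM in Cbfb(wt) (SD, n = 3), and the fitted log2 fold change was 1.01 ± 0.85 (SE), with a 95% interval of -0.79 to 2.80.

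Actg2, the gamma actin of visceral smooth muscle (chr6:83512905-83536265, minus strand), was less abundant. Its Cbfb(het) levels ran from 2.01 TPM over a median of 8.42 to 70.6 TPM, against 2.86, 7.07 and 1.82 TPM in the Cbfb(wt) tumors, with 23.0 TPM in the Cbfb(homo) tumor. By log2 CPM, the scale of all such counts here, 10 of 14 Cbfb(het) tumors lay above all 3 Cbfb(wt) tumors, and Cbfb(het) replicates 1 and 4 stood far above the rest. The log2 fold change was 2.22 ± 1.07 (SE), with an interval of -0.05 to 4.48 and an unadjusted p of 0.0543 by edgeR. RSEM shares reads between similar genes, and the actins are close in sequence. The expected counts of Actg2 were whole, within 0.005, in 18 of 18 tumors and those of Acta2 in 12 of 18. Those of the skeletal muscle actin Acta1 were whole in 11 of 18, and those of the cytoplasmic actins Actb and Actg1 in 0 of 18. Actb averaged 1965 ± 904 TPM in Cbfb(het) and 2168 ± 905 TPM in Cbfb(wt), and the cardiac actin Actc1 stayed at 2.46 TPM or less in every tumor.

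Lmod1, a leiomodin that starts new actin filaments in smooth muscle (chr1:135324807-135368065, plus strand), was among the least abundant. The lowest Cbfb(het) tumor had 1.02, the median 2.53 and the highest 8.80 TPM, the Cbfb(homo) tumor had 8.17, and the Cbfb(wt) tumors had 3.57, 0.37 and 1.95 TPM. Only 5 Cbfb(het) tumors lay above all Cbfb(wt) tumors, so the groups overlapped broadly. Its log2 fold change was 0.79 ± 0.68 (SE), with an interval of -0.64 to 2.22, and was 1.501 without Cbfb(wt) replicate 1 and 0.30 without Cbfb(wt) replicate 2.

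Tagln encodes transgelin, an actin-bundling protein of smooth muscle (chr9:45929619-45936058, minus strand). It had 41.4 TPM in the lowest, 105 in the median and 354 in the highest Cbfb(het) tumor and 558 in the Cbfb(homo) tumor, against 53.2, 92.6 and 22.4 TPM in Cbfb(wt). Of the 14 Cbfb(het) tumors 8 lay above all 3 Cbfb(wt) tumors and none below all 3. The mean was 140 ± 107 TPM in Cbfb(het) (SD, n = 14) and 56.0 ± 35.2 TPM in Cbfb(wt) (SD, n = 3). The log2 fold change was 1.45 ± 0.66 (SE), with an interval of 0.06 to 2.84 and an unadjusted p of 0.0423 by edgeR. Tagln overlaps 2 genes on the opposite strand, Pcsk7 and Gm48529, and the strand setting of the counting is not given in the sources used here.

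Cnn1, calponin, binds actin and slows the myosin ATPase (chr9:22099216-22109630, plus strand). In Cbfb(het) its level was 1.82 TPM at the lowest, 8.22 at the median and 134 at the highest, in Cbfb(homo) 24.6, and in Cbfb(wt) 3.75, 12.7 and 2.19 TPM. Cbfb(het) replicate 1 alone stood above 100 TPM, and replicates 4 and 12 followed at 51.2 and 51.1 TPM. The log2 fold change of 2.08 ± 1.29 (SE) had the widest interval of the 8, from -0.63 to 4.80.

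Myh11 encodes the heavy chain of smooth muscle myosin (chr16:14194535-14291372, minus strand), a marker of mature smooth muscle and of myoepithelium. Cbfb(het) tumors had 0.56 TPM at the lowest, 2.66 at the median and 22.8 at the highest, and the Cbfb(homo) tumor had 24.9 TPM, while the 3 Cbfb(wt) tumors were close together at 1.13, 0.77 and 0.78 TPM. By log2 CPM, 13 of 14 Cbfb(het) tumors lay above all 3 Cbfb(wt) tumors, the exception being Cbfb(het) replicate 8. Replicates 10 and 7, at 1.13 and 1.16 TPM, stood next to the highest Cbfb(wt) tumor. The mean was 4.07 ± 5.60 TPM in Cbfb(het) (SD, n = 14) and 0.89 ± 0.21 TPM in Cbfb(wt) (SD, n = 3). The fitted log2 fold change was 2.47 ± 1.02 (SE), with an interval of 0.31 to 4.62 and an unadjusted p of 0.0272 by edgeR, which did not survive adjustment.

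Mylk, the myosin light chain kinase (chr16:34745210-35002420, plus strand), had 1.04 TPM in the lowest, 4.46 in the median and 39.1 in the highest Cbfb(het) tumor, 12 in the Cbfb(homo) tumor, and 2.63, 5.32 and 2.36 TPM in the Cbfb(wt) tumors. Cbfb(het) replicate 4 stood alone at the top, and 8 Cbfb(het) tumors lay above and 1 below all 3 Cbfb(wt) tumors. The log2 fold change was 1.33 ± 0.75 (SE), with an interval of -0.25 to 2.91. Mylk has 8 annotated transcripts of 393 to 7824 bases, and its mean transcript length as RSEM estimated it ran from 3601 bases in Cbfb(het) replicate 4 to 6881 bases in replicate 5. TPM divides by that length, so for Mylk it also moves with the mix of transcripts, whereas the fold changes rest on counts. By log2 CPM Cbfb(het) replicate 4 was also the highest. In addition, 3 antisense genes overlap Mylk.

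Oxtr, the oxytocin receptor (chr6:112473683-112489943, minus strand), was present in all 3 groups and at less than 1 TPM in 3 tumors. The lowest, median and highest Cbfb(het) tumor had 0.46, 5.35 and 20.9 TPM, the Cbfb(homo) tumor had 13, and the Cbfb(wt) tumors had 4.73, 0.31 and 6.09 TPM. Levels were 0.53 and 0.46 TPM in Cbfb(het) replicates 10 and 14 and 0.31 TPM in Cbfb(wt) replicate 2, while the other 15 tumors had 1.11 to 20.9 TPM. Between Cbfb(het) and Cbfb(wt) the log2 fold change was 0.95 ± 1.02 (SE), with an interval of -1.19 to 3.09.

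The Cbfb(homo) tumor, which has no replicate and entered no test, held high levels of every member. By log2 CPM it was the highest of 18 tumors for Tagln and Lmod1, the second for Acta2, Myh11 and Mylk, the third for Oxtr and Actg2, and the fourth for Cnn1. Over all 18475 genes this tumor was the highest of 18 for 4.41% and the lowest for 3.42%. Its summed TPM over the 8 members was 1485, against 105 to 1285 in the 14 Cbfb(het) tumors and 58.0 to 363 in the 3 Cbfb(wt) tumors. It also had the highest mean log2 CPM of 18 tumors for the marker lists of basal epithelium, of pericytes and of endothelium. Krt14, a basal keratin, stood at 10567 TPM in it, against 121 to 6274 TPM in Cbfb(het) and 780 to 5132 TPM in Cbfb(wt). Rgs5, a pericyte marker, stood at 55.9 TPM in it, against 7.03 to 33.6 TPM in Cbfb(het) and 8.87 to 27.7 TPM in Cbfb(wt). Its lead on the pericyte list was narrow, at 4.656 against 4.616 and 4.615 in Cbfb(het) replicates 10 and 14. By summed TPM of that list it stood at 634, below the highest Cbfb(het) tumor at 791. The pericyte genes Cox4i2, Abcc9 and Cspg4 were each higher in a Cbfb(het) tumor. The part of these cell types in its contractile gene levels was not tested.

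Single Cbfb(het) tumors differed in which contractile genes were high. By log2 CPM, Cbfb(het) replicate 4 was among the top 3 of 18 tumors for all 8 members. Its levels of Krt14 and Krt5 were low, at 346 and 423 TPM, the third and the fifth lowest of 18, and it ranked 12 of 18 for the pericyte list and 12 of 18 for the endothelial list. Cbfb(het) replicate 1 was the highest of 18 for Acta2, Cnn1 and Actg2, but ranked 13 for Mylk and 15 for Oxtr, and its Krt14 was the lowest of all, at 121 TPM. By log2 CPM, Cbfb(wt) replicate 3 was the lowest of 18 for Acta2, Cnn1, Tagln and Actg2 and for the pericyte list, yet ranked 8 for Oxtr, with Epcam at 579 TPM. Skeletal muscle genes were high in some of these tumors. Acta1, the skeletal muscle actin, reached 1471 TPM in Cbfb(het) replicate 5, 427 in replicate 1 and 92.8 in Cbfb(homo), with Ckm at 1119, 114 and 23.2 TPM, while Cbfb(het) replicate 4 had 0.98 TPM of Acta1 and no Ckm listed. Their part in the members' levels was not tested.

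**Figure D3:**
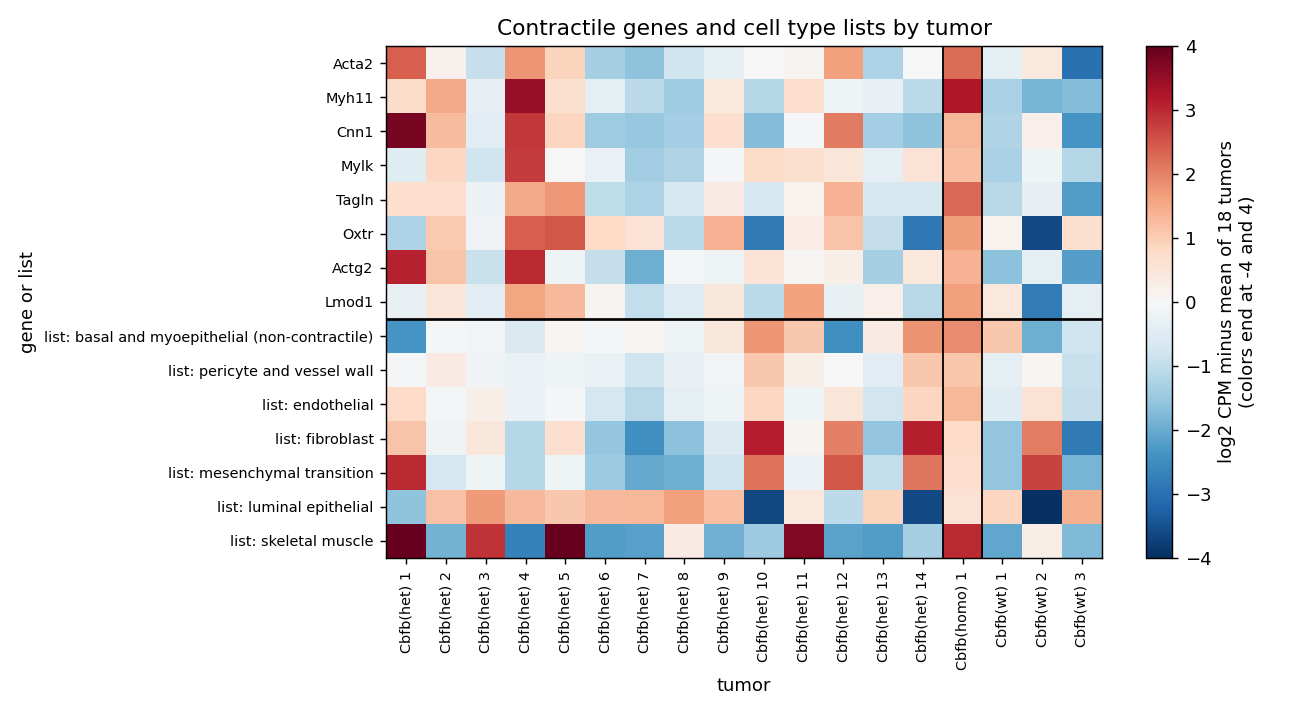
Log2 CPM of each gene (upper 8 rows) and mean log2 CPM of each marker list (lower 7 rows) in each tumor, as the difference from the mean of 18 tumors, with colors ending at a difference of 4 either way and tumors ordered Cbfb(het), Cbfb(homo), Cbfb(wt). Cbfb(het) replicates 2 and 4 and the Cbfb(homo) tumor lie above the mean for all 8 genes, replicate 2 only slightly for Acta2. Oxtr is dark blue in the same 3 tumors in which the luminal list is darkest blue.

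The mix of the 8 transcripts also varied. Acta2 made up 68.7% of the summed TPM of the 8 in Cbfb(het) replicate 1 and 35.2% in Cbfb(wt) replicate 3, the highest and lowest shares of 18. Myh11 stood at 5.19 TPM per 100 TPM of Acta2 in Cbfb(het) replicate 4, 3.03 in Cbfb(homo), 0.49 in Cbfb(het) replicate 1 and 0.45 in Cbfb(het) replicate 12, which were the 4 tumors with the most Acta2. In the Cbfb(wt) tumors the same ratio was 0.85, 0.32 and 3.81. The ratio of Tagln to Acta2 TPM ran from 0.21 in Cbfb(het) replicate 1 to 1.26 in Cbfb(het) replicate 5.

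The members varied together across tumors. All 28 pairs had a positive Pearson's r of log2 CPM, and 20 passed a two-sided permutation test with 100000 resamples after Benjamini-Hochberg adjustment over the 28. By Spearman's rho 20 also passed. The closest pairs were Acta2 with Tagln, at r = 0.87 and rho = 0.85, Acta2 with Cnn1, at r = 0.86 and rho = 0.83, and Acta2 with Actg2, at r = 0.85 and rho = 0.83, each over 18 tumors with an adjusted permutation p of 0.00014 for r. Without the 2 tumors farthest from the median of Acta2, r was 0.88, 0.81 and 0.77 in these pairs. Myh11 with Tagln followed with r = 0.82, and with rho = 0.79 (adjusted permutation p = 0.000224 for r).

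Lmod1 was close to Myh11, with r = 0.77 and rho = 0.79 (adjusted permutation p = 0.00072 for r), but its r of 0.30 with Acta2, 0.37 with Cnn1, 0.44 with Mylk and 0.29 with Actg2 did not pass. The pair of Tagln and Lmod1 passed with r = 0.55, which was 0.37 and did not pass without the 2 tumors farthest from the median of Tagln. Likewise, Myh11 with Mylk had r = 0.76 over 18 tumors and 0.50 over 16. In the 14 Cbfb(het) tumors alone, 15 of 28 pairs passed, and 4 of the 5 lost from the 20 involved Mylk.

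Oxtr values fell into 2 separate runs of tumors, so its relations were computed over the larger run of 15, leaving out Cbfb(het) replicates 10 and 14 and Cbfb(wt) replicate 2. There Oxtr had r = 0.62 with Mylk, 0.59 with Lmod1 and 0.55 with Myh11, which passed, and 0.53 with Tagln, 0.29 with Acta2, 0.28 with Cnn1 and 0.18 with Actg2, which did not. Over all 18 tumors pooled, r was 0.23 with Mylk, which did not pass, and 0.80 with Lmod1 and 0.63 with Myh11, which did. The values over 15 tumors rested on few of them. Without the 2 tumors farthest from the median of the other gene or of Oxtr, whichever was on the x axis, r was 0.41 with Mylk, 0.51 with Lmod1 and 0.28 with Myh11, none of which passed, while r with Acta2 was 0.70, with Cnn1 0.62 and with Actg2 0.61, all of which passed. The tumors set aside for Acta2 included Cbfb(het) replicate 1, at 883 TPM of Acta2 and 1.67 TPM of Oxtr, and Cbfb(wt) replicate 3, at 20.4 TPM of Acta2 and 6.09 TPM of Oxtr.

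**Figure D4:**
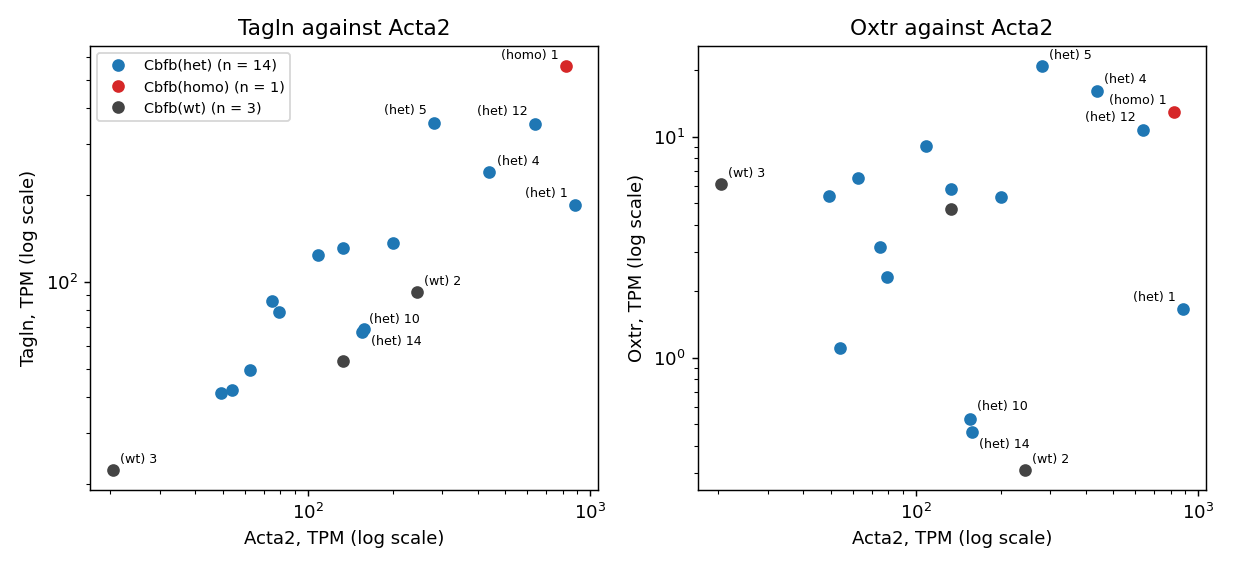
TPM of Tagln (left panel) and of Oxtr (right panel) against Acta2, both axes on log scales, 1 point per tumor, colored by genotype. Tagln rises with Acta2 over most of the range. At the highest Acta2 level, 883 TPM, Cbfb(het) replicate 1 has only 185 TPM of Tagln, against 558 TPM in Cbfb(homo). The Cbfb(homo) tumor has 821 TPM of Acta2. Oxtr has 3 tumors below 1 TPM, and Cbfb(het) replicate 1 also has little Oxtr.

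**Figure D5:**
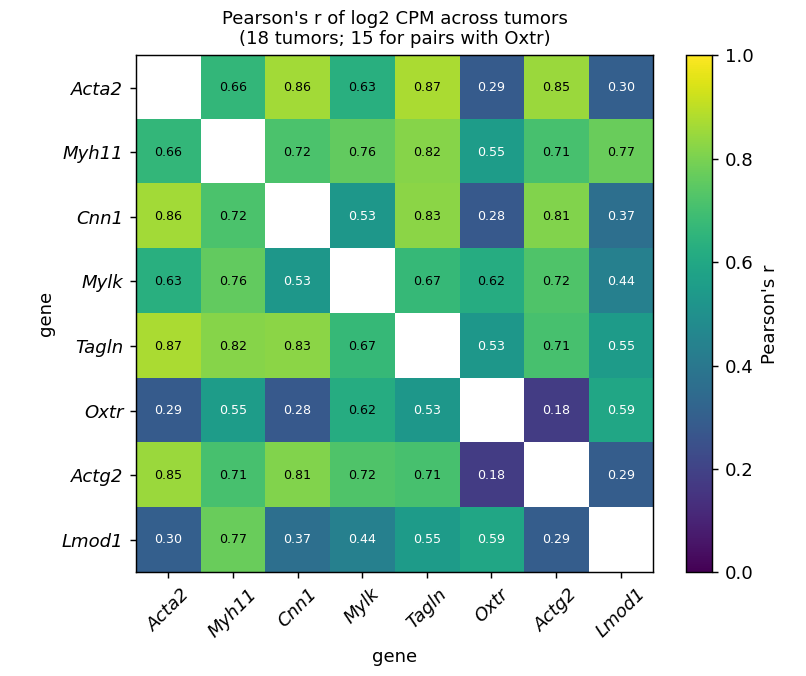
Pearson's r of log2 CPM for each pair of genes, over 18 tumors or, in pairs with Oxtr, over 15. The pairs among Acta2, Cnn1, Tagln and Actg2 range from 0.71 to 0.87, and those of Oxtr with Acta2, Cnn1 and Actg2 are 0.29 or less.

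Levels were also set beside markers of the cell types that make contractile proteins, over 48 relations of a member with the mean log2 CPM of a list. Only 2 passed after adjustment over the 48 by permutation of r. Acta2 was related to the endothelial list, with r = 0.73 and rho = 0.71 over 18 tumors (adjusted permutation p = 0.0230 for r), and Tagln to the list of mesenchymal transition genes, with r = 0.78 and rho = 0.80 over a run of 13 tumors (adjusted permutation p = 0.0478 for r). Neither held without the 2 tumors farthest from the median of the list, where r was 0.64 and 0.65, with adjusted permutation p of 0.0753 and 0.220. Over all 18 tumors pooled, Tagln had r = 0.34 with the mesenchymal list, which did not pass. By Spearman's rho 19 of the 48 passed. The pericyte list passed with Acta2, Cnn1, Mylk, Tagln and Actg2, with rho of 0.68 to 0.73 over 15 tumors. These left out Cbfb(homo) and Cbfb(het) replicates 10 and 14, the 3 highest for that list. Without the 2 farthest of the 15, r was 0.31 to 0.39 with these members. The mesenchymal list passed with Acta2, Myh11, Cnn1, Mylk, Tagln and Lmod1. The endothelial list passed with Acta2, Mylk, Tagln and Actg2, and the fibroblast list with Acta2, Mylk and Actg2. The luminal list passed with Acta2, at a negative rho of -0.65.

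The basal and myoepithelial list of 11 keratins, adhesion molecules and transcription factors, which holds no contractile gene, passed with no member. Its r over 15 tumors ran from -0.08 with Cnn1 to 0.44 with Acta2, and over 13 tumors it was 0.02 with Oxtr. Left out of the 15 were Cbfb(het) replicates 1 and 12 and Cbfb(wt) replicate 2, the 3 tumors lowest for this list. By log2 CPM they ranked 1, 4 and 6 of 18 for Acta2, but 10, 11 and 18 for Lmod1. For members other than Oxtr, r with these tumors included is not given here. The summed TPM of the basal list was 412 to 12610 in Cbfb(het), 24690 in Cbfb(homo) and 1467 to 9897 in Cbfb(wt). Oxtr had r = 0.10 with the pericyte list over 14 tumors and 0.21 with the luminal list over 15, and neither passed. Over all 18 tumors pooled, which joins the separate runs, Oxtr had r = 0.79 with the luminal list, and this passed (adjusted permutation p = 0.0139). The 3 tumors with the least Oxtr were also the 3 with the lowest luminal list. In them Epcam stood at 26.4 TPM in Cbfb(het) replicate 10, 27.2 in Cbfb(het) replicate 14 and 5.6 in Cbfb(wt) replicate 2. Cbfb(het) replicates 10 and 14 had Krt14 at 5822 and 6101 TPM in spite of their low Oxtr.

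By likeness over 18 tumors among genes whose mean log2 CPM was 1 or more, the gene nearest to Acta2 and to Tagln was Myl9, the regulatory light chain of smooth muscle myosin, with r of 0.93 and 0.94. Next to Acta2 came Msl3l2 (r = 0.90) and Nexn, an actin-binding protein (r = 0.89), and next to Tagln came Acvrl1, a receptor of the TGF-beta family (r = 0.93), and Msl3l2 (r = 0.90). Cnn1 had Acvrl1, Cxxc5 and Myl9 nearest, with r of 0.83 each, and Actg2 had the secreted matrix protein Sparcl1 (r = 0.81), Myl9 (r = 0.80) and Zfp366 (r = 0.80). Members were left out of these lists, but with them included Acta2 was the nearest of 18474 genes both to Cnn1 and to Actg2.

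The remaining 4 members had other neighbours. Myh11 was nearest to the sialomucin Cd164 (r = 0.87), Klhl29 (r = 0.85) and Fam174b (r = 0.84), and Mylk to the kinase Nek7, 1600014C10Rik (both r = 0.88) and Klhl3 (r = 0.83). Lmod1 was nearest to Meltf (r = 0.93), 5330417C22Rik and Papln (both r = 0.92). Oxtr was nearest to Tmem56 (r = 0.93), Creb3l4, a transcription factor of the CREB family (r = 0.92), and Prlr, the prolactin receptor (r = 0.92). Over the 15 tumors of its larger run these 3 values were 0.88, 0.81 and 0.76. By the same measure Acta2 ranked 7567 of 18474 genes for Oxtr.

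Other genes of the contractile pathway were described from lists. Of 30 further genes of the contractile apparatus 29 passed the filter, and 24 were positive and 5 negative in Cbfb(het) over Cbfb(wt), with a median log2 fold change of 0.34 and 0 called. The share positive over all genes tested was 53.2%. Myl9 had the smallest p of the list. It averaged 82.6 ± 63.7 TPM in Cbfb(het) (SD, n = 14) and 34.0 ± 13.9 TPM in Cbfb(wt) (SD, n = 3), with a log2 fold change of 1.43 ± 0.56 (SE), an unadjusted p of 0.0204 and an adjusted p of 0.999 by edgeR. Actg1, the most abundant of the list, had 0.13 ± 0.22.

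Of 4 genes for serum response factor and its cofactors 3 were tested, all with log2 fold changes near 0, namely Srf at -0.21 ± 0.31 (SE), Mrtfa at -0.07 ± 0.35 and Mrtfb at -0.09 ± 0.31. Myocd, the cofactor that drives smooth muscle genes, did not pass the filter and was listed at 0 to 0.53 TPM in the 14 Cbfb(het) tumors, 0.17 in Cbfb(homo) and 0 to 0.05 in the 3 Cbfb(wt) tumors. Of 22 genes of contraction signalling 20 were tested, 10 positive and 10 negative, with a median of -0.01. The smallest p in that list was that of Kcnmb1, the beta subunit of the calcium-activated potassium channel of smooth muscle, at 1.74 ± 0.64 (SE), and Rhoa, its most abundant gene, had 0.01 ± 0.17.

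Of the marker lists of cell types 0 genes were called. All 11 basal genes were positive, with a median of 0.51, as were 9 of 12 pericyte genes (median 0.27), 9 of 10 endothelial genes (0.15), 8 of 10 fibroblast genes (0.95), 9 of 10 luminal genes (0.24) and 10 of 11 skeletal muscle genes (4.47). Over all genes tested 53.2% were positive. Genes of a list can vary together, so their signs are not separate observations. The Cbfb(wt) side rests on 3 tumors. Luminal list levels were 2.33 in Cbfb(wt) replicate 2, against 8.13 and 8.67 in replicates 1 and 3. Basal list levels were 5.45, against 8.47 and 6.59. The skeletal muscle fold changes do not describe the median Cbfb(het) tumor. Summed TPM over that list had a median of 28.3 and a highest value of 6412 among Cbfb(het) tumors. Among Cbfb(wt) tumors the median reached 21.9 and the highest value 42.2. Median levels of the list by mean log2 CPM were close, at -1.161 for Cbfb(het) tumors against -1.255 for Cbfb(wt) tumors. Of the mesenchymal transition genes 3 of 7 were positive (median -0.13), and of the leukocyte genes 3 of 8 (median -0.18). Krt14 had a log2 fold change of 0.54 ± 0.92 (SE). The pericyte gene Notch3 had -0.12 ± 0.55 and Aoc3, an amine oxidase of vascular smooth muscle, 1.52 ± 0.49 with an unadjusted p of 0.00669 by edgeR. Pecam1 had 0.19 ± 0.46 and Vwf 0.77 ± 0.43 among the endothelial genes, Postn 0.48 ± 0.98 and Thy1 1.43 ± 0.77 among the fibroblast genes, and Fn1 0.37 ± 1.42 and Zeb1 -1.55 ± 1.11 among the mesenchymal genes. Krt8 had 0.01 ± 0.91 and Gata3 0.53 ± 0.85 among the luminal genes. Acta1 had 4.47 ± 3.03 and Myh4 10.33 ± 5.14 among the skeletal muscle genes, and Cd14 -0.06 ± 0.62 and Cd79a 1.90 ± 0.81 among the leukocyte genes. The part of these lists in the members' levels was not tested.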

How the data were processed

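RNA came from freshly isolated tumors and was prepared with a TruSeq stranded mRNA kit, per the labels' protocols. The authors deposited expected counts, RSEM's estimates of the reads of each gene with ambiguous reads shared out, per the file headers. The authors also deposited TPM, which RSEM scales by transcript length and to 1 total per tumor. STAR 2.7.0f, RSEM 1.3.1 and mm10 are named in the submitters' processing notes, with no settings. All 55450 gene IDs occur in GENCODE M21. FPKM values were not used.

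Here, expected counts (6.20% to 7.19% not whole) were rounded. Genes passing filterByExpr were scaled by TMM and fitted with edgeR 4.0.16 in R 4.3.3, 14 Cbfb(het) against 3 Cbfb(wt) tumors, with adjustment over 18475 genes and a threshold of 0.05. Intervals are at 95%. Levels are TPM or log2 CPM with a prior count of 2. In counts simulated for this comparison over 18150 genes, the fit called 56% of 100 genes changed 4-fold and 75% of 100 changed 8-fold, with 4 unchanged genes. The changed genes were drawn at random from the more abundant genes. These shares are therefore not those for the members, whose SD was larger than that of 73.8% to 91.4% of genes. Correlations used 100000 resamples (smallest p 1e-05), and a measure with a gap of at least 0.2 of its range and 3 or more tumors on each side was used over its larger run only. Likeness names the 3 genes with the highest r. Of each list, the text names the most abundant gene and the one with the smallest p, except for 1 gene that is not reported here. Replicates were numbered in accession order. Members and lists were chosen with earlier results of these data known. Genes named with single tumors were chosen after their values were seen. Alternatives were DESeq2 1.42.0, limma-voom (limma 3.58.1), other scaling and filters, and leaving out each tumor.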

Additional observations from a re-analysis of the deposited data

How the results depend on the processing

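No paired analysis was possible because every label carries the same repeat number and replicate numbers only follow the order of the samples. The 8 members kept the direction of their log2 fold change in every alternative setting, 184 of 184 values with 1 value per member and setting. None passed in any, with a lowest adjusted p of 0.417 (Myh11 by DESeq2). The settings share most of their tumors, so the 184 values are not separate observations. Leaving out 1 tumor at a time moved the log2 fold change of Acta2 between 0.51 and 1.75, of Myh11 between 1.73 and 2.66, of Lmod1 between 0.30 and 1.501 and of Oxtr between 0.40 and 1.57. Without Cbfb(wt) replicate 2 or Cbfb(het) replicate 4, the values of Cnn1 and Actg2 exceeded that of Myh11. Leaving out each Cbfb(wt) tumor moved the Cbfb difference between 0.18 and 0.98, the highest value being the one without Cbfb(wt) replicate 1. Without the low-count filter, and with all 18 tumors in the fit, 1 gene was called lower in Cbfb(het), Tex11 in both, named after its values were seen. Of the 28 pairs of members, 15 to 20 passed in every alternative. Of the 48 relations with marker lists, 0 passed in the 14 Cbfb(het) tumors alone, 4 on log2(TPM + 1) values, 1 without the 2 farthest tumors and 3 over all 18 tumors pooled, and the cause was not tested. The r of Oxtr with the basal list turned to -0.38 in Cbfb(het) tumors alone, -0.033 on TPM values, -0.20 without the 2 farthest tumors, -0.013 over all 18 tumors pooled and -0.32 with Cbfb(het) replicates 10 and 14 averaged. With the pericyte list it turned to -0.59 in Cbfb(het) tumors alone, -0.066 on TPM values, -0.33 pooled and -0.18 with the 2 averaged. With the luminal list it turned to -0.10 in Cbfb(het) tumors alone and -0.17 without the 2 farthest tumors, but it was 0.79 pooled and passed. The setting with Cbfb(het) replicates 10 and 14 averaged gave the same -0.17 and is no further observation. There the rule on separate runs dropped the averaged tumor and left the same 13 tumors. The pooled setting, the averaging and the rule on separate runs were chosen after seeing the data.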
